A study of Mus musculus with 4 samples.

Results

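The genes described here are 10 mouse genes of iron uptake, export, storage, haem breakdown and plasma carriage, and they were followed in the duodenum and the spinal cord. They were chosen by name for these roles, and their probes were found through the RefSeq accessions in the scanner files. All 10 were on the arrays, among 32585 genes or identifiers in all. They had 18 probes, with a single probe for 4 of the genes and more than 1 probe for the other 6.

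Male mice without IP6K2 (IP6K2-KO), an inositol hexakisphosphate kinase, and their WT littermates were 20 weeks old. All of them had been kept on CE-2 chow, given iVid-neo, a purified diet, during 1 further week, and fasted for 48 h before tissue was taken. The labels do not give the allele. The paper of the study, which does not mention these arrays, describes deletion of exon 6 of *Ip6k2*, and blood washed from the animals through the heart with saline. RNA of spinal cord and of duodenum was hybridized to 1-colour arrays, 4 in all, so that a genotype was represented by 1 array in each tissue. No difference has replicates behind it, and none was tested.

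Dietary iron enters the duodenal enterocyte as ferrous iron, after a reductase on the brush border (*Cybrd1*) has acted on ferric iron, through the divalent metal transporter (*Slc11a2*). Inside the cell it is stored in ferritin, a shell of heavy (*Fth1*) and light (*Ftl1*) subunits, or leaves across the basolateral membrane through ferroportin (*Slc40a1*) while the ferroxidase hephaestin (*Heph*) oxidizes it for binding to transferrin (*Trf*). Transferrin delivers iron to cells through its receptor (*Tfrc*), ceruloplasmin (*Cp*) is the ferroxidase of plasma and of astrocytes, and haem oxygenase 1 (*Hmox1*) frees iron from haem.

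The target of the knockout was examined first. The single *Ip6k2* probe gave a processed signal, the scanner's intensity after background subtraction, of 452 with WT spinal cord, against 1320 with spinal cord labelled IP6K2-KO. In the duodenum it gave 139 on the WT array and 572 on the IP6K2-KO-labelled array. On the log2 scale, with each array's 75th percentile subtracted, the KO-labelled array was higher by 1.45 in the spinal cord, and in the duodenum the difference was −0.21. The duodenum value turned to 0.058 under normexp background correction. The spinal cord value goes against the label, and the files do not give the position of the probe relative to exon 6, so that the probe may not check the label at all if that deletion is the one carried here. Genotypes are therefore given as labelled throughout, also where a direction is drawn from them.

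The arrays differed in brightness. The 75th percentile of the signal was 905 and 971 on the WT and KO-labelled spinal cord arrays, but 68.0 on the WT duodenum array and 323 on the KO-labelled duodenum array. In the same order, 76.7%, 77.4%, 51.6% and 66.3% of 39429 probes were well above background by the scanner's own call. The probe that represents each gene, the one with the highest mean over the 4 arrays, was well above background on all 4 arrays for each of the 10 iron genes. A technical SD is given with some differences. It comes from probes spotted at least 10 times on an array and covers spots only, not mice.

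The labelled tissues were checked against marker genes. All 12 enterocyte markers were well above background on both duodenum arrays, with *Fabp2* the brightest on the WT array at 91061. All 10 neuronal, 11 oligodendrocyte and 8 astrocyte markers were well above background on both spinal cord arrays. Among 8 smooth muscle markers, *Lmod1* was not well above background on the WT duodenum array. The 12 pancreatic acinar markers were well above background on both duodenum arrays too, with *Cela3b* the brightest at 214744 and 244876. Their summed level, in units of the 75th percentile of the array, was 19918 on the WT and 6264 on the KO-labelled duodenum array, against 0.92 and 0.93 in the spinal cord. The list's median genotype difference in the duodenum was −1.74 with the 75th percentile and 0.03 with quantiles of the 4 arrays. The part of this tissue in the duodenum values of the iron genes was not tested. In such bulk RNA, fewer cells of a type and less RNA per cell cannot be told apart.

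The first comparison asked how the iron genes differ between an absorbing tissue and one that does not absorb. Between the WT arrays, 6 of the 10 genes were at least 2-fold higher in the duodenum, where 30.2% of 25219 genes were, and 3 were at least 2-fold lower, where 23.1% were. Between the KO-labelled arrays the counts were 7, against 30.3% of 25727 genes, and 3, against 25.4%. At these shares about 3 of 10 genes would be higher and 2 or 3 lower. With quantiles within each tissue, 1 iron gene was at least 2-fold higher and 5 lower in the WT pair, and 1 and 4 in the KO-labelled pair. Scaling on the spiked-in control probes gave 0 and 9 in the WT pair, and 3 and 3 in the KO-labelled pair. The matching counts over all genes are given at the end. The median gene well above background on both arrays was itself higher in the duodenum, by 0.63 in the WT pair and 0.30 in the KO-labelled pair. That median depended on the scaling. It was −2.08 and −2.31 after quantile normalization within each tissue, and −4.41 and −1.56 after scaling on the spiked-in control probes. Differences between the tissues are therefore also given relative to the median gene, over 5 ways of processing, which are the 75th percentile, normexp background correction with and without replacement of flagged backgrounds, and quantile normalization of the 4 arrays or within each tissue. Median centring and the control probes shift all genes of an array alike and equal the 75th percentile in this measure, and are added, as 7 scalings, only where a difference is compared with 0. These ways share the same 4 arrays and are not independent.

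Ferroportin had the widest tissue difference of the 10 genes with the 75th percentile. The *Slc40a1* probe gave signals of 363 and 484 on the WT and KO-labelled spinal cord arrays, and of 1243 and 3324 on the WT and KO-labelled duodenum arrays. Both duodenum signals were above both spinal cord signals even before scaling. The normalized difference was 5.51, or 45.6-fold, in the WT pair and 4.37, or 20.7-fold, in the KO-labelled pair. It was above 0 under the 7 scalings, and relative to the median gene it ranged from 3.81 to 4.88 in the WT pair and from 3.52 to 4.17 in the KO-labelled pair.

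Hephaestin, its partner at the basolateral membrane, was represented by a probe listed under NM_001159628. Its signals were 1146 and 1197 in the WT and KO-labelled spinal cord, and 849 and 3126 in the WT and KO-labelled duodenum. Once the brightness of the arrays was taken into account, the duodenum stood above the spinal cord by 3.30 in the WT pair and 2.97 in the KO-labelled pair, but by 0.50 and 0.44 with quantiles within each tissue. Scaling on the control probes turned the WT value to −1.73, although relative to the median gene *Heph* was higher in the duodenum under the 5 ways, by at least 1.76. The other 2 *Heph* probes, listed under NM_181273, were dim, with signals of 9.77 and 18.8 on the WT spinal cord array. Neither was well above background on the WT duodenum array, and in the KO-labelled pair they differed by 2.67 and 1.27, higher in the duodenum as well.

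At the brush border, the *Cybrd1* probe gave 72.1 and 69.8 on the WT and KO-labelled spinal cord arrays and 45.4 and 184 on the WT and KO-labelled duodenum arrays. The duodenum was higher by 3.07, or 8.39-fold, in the WT pair and by 2.99, or 7.92-fold, in the KO-labelled pair. A second, dimmer *Cybrd1* probe gave 10.2, 7.06, 12.4 and 53.8 on the arrays in the same order and was likewise higher in the duodenum, by 22.9-fold in the KO-labelled pair. With the 75th percentile the reductase thus stood higher in the duodenum by both probes. The brighter probe's differences fell below 2-fold, to 0.39 and 0.33, with quantiles within each tissue. On the control probes the brighter probe's WT difference was −1.97 and that of the median gene −4.41, and the dimmer probe was not taken through the other scalings.

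The divalent metal transporter showed less of a tissue difference. Signals of the brighter *Slc11a2* probe were 352 and 376 in the WT and KO-labelled spinal cord and 51.0 and 406 in the WT and KO-labelled duodenum. The differences were 0.95 and 1.70, both higher in the duodenum, and they lay above the median gene under the 5 ways, by as little as 0.17 in the WT pair. Without that reference their sign turned in both pairs under quantile normalization within each tissue and under scaling on the control probes. The dimmer probe gave 33.3, 34.6, 28.7 and 37.3 on the arrays in the same order, with differences of 3.52 and 1.70. Thus the probes gave the same tissue difference in the KO-labelled pair and unlike ones in the WT pair.

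Both ferritin subunits were bright on every array. *Ftl1* gave 37336 and 43874 in the WT and KO-labelled spinal cord, and 43766 and 78823 in the WT and KO-labelled duodenum. It was higher in the duodenum by 3.96 in the WT pair and 2.43 in the KO-labelled pair, and above the median gene under the 5 ways, by 0.60 or more. Quantiles within each tissue left 0.70 and 0.36, and scaling on the control probes turned its WT difference to −1.07.

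*Fth1* behaved differently. Its signals were 138154 and 134204 in the WT and KO-labelled spinal cord, and 46878 and 108410 in the WT and KO-labelled duodenum, so that before scaling both duodenum signals were the lower ones. After subtraction of the 75th percentile the duodenum was higher by 2.18 and 1.28. Quantile normalization of the 4 arrays turned these differences to −1.02 and −0.72, and relative to the median gene *Fth1* was lower with these quantiles and higher in the other 4 ways in each pair. The direction of *Fth1* between the tissues is not settled by these arrays.

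*Hmox1* signals were 378 and 651 on the WT and KO-labelled spinal cord arrays and 98.0 and 496 on the WT and KO-labelled duodenum arrays. The duodenum was higher by 1.79 and 1.20, and above the median gene under the 5 ways, although the sign itself turned under quantile normalization within each tissue and on the control probes. The dimmer probe of the gene differed by 2.14 in the WT pair and 0.26 in the KO-labelled pair. The size of this difference in the KO-labelled pair therefore depended on the probe.

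The genes of plasma carriage and uptake ran the other way. *Trf* gave 42219 and 51895 in the WT and KO-labelled spinal cord, and 297 and 1064 in the WT and KO-labelled duodenum. The duodenum was lower by 10.7-fold, a difference of −3.41, in the WT pair and by 16.2-fold, a difference of −4.02, in the KO-labelled pair. Its second probe gave −4.20 and −4.33, and the brighter probe stayed below 0 under the 7 scalings. The spinal cord was thus the high tissue for *Trf* by both probes. In the central nervous system transferrin is made by oligodendrocytes, and of 11 oligodendrocyte markers 11 were well above background on each spinal cord array but 5 on the WT and 6 on the KO-labelled duodenum array. The summed level of those markers was 271 and 280 in the WT and KO-labelled spinal cord, and 13.8 and 20.3 in the WT and KO-labelled duodenum. In each pair 9 of the 11 were at least 2-fold lower in the duodenum. *Ermn*, the brightest in the duodenum at 625 and 4571, was not, with differences of −0.64 in the WT pair and 0.175 in the KO-labelled pair. The part of oligodendrocytes in the *Trf* difference was not tested.

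*Tfrc* was read by 3 probes, of which the brightest was spotted 10 times on each array. That probe gave 1493 and 1375 in the WT and KO-labelled spinal cord, and 30.5 and 214 in the WT and KO-labelled duodenum. It was lower in the duodenum by 3.67-fold, a difference of −1.88, in the WT pair and by 2.14-fold, −1.10, in the KO-labelled pair, and this sign held under the 7 scalings. The dimmest probe was not well above background on the WT duodenum array and differed by −1.02 in the KO-labelled pair. The remaining probe gave 522 and 547 in the WT and KO-labelled spinal cord and 60.4 and 133 in the WT and KO-labelled duodenum, and its differences were 0.62 and −0.45. In the WT pair the probes of the receptor therefore disagreed on the direction.

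*Cp* was measured by a single probe, with signals of 454 and 632 in the WT and KO-labelled spinal cord, and 15.8 and 101 in the WT and KO-labelled duodenum. The differences were −1.11 and −1.06, lower in the duodenum. *Cp* lay below the median gene under the 5 ways in both pairs, but normexp correction with the flagged local backgrounds replaced turned the WT difference to 0.34, when the median gene was at 0.74.

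**Figure D1:**
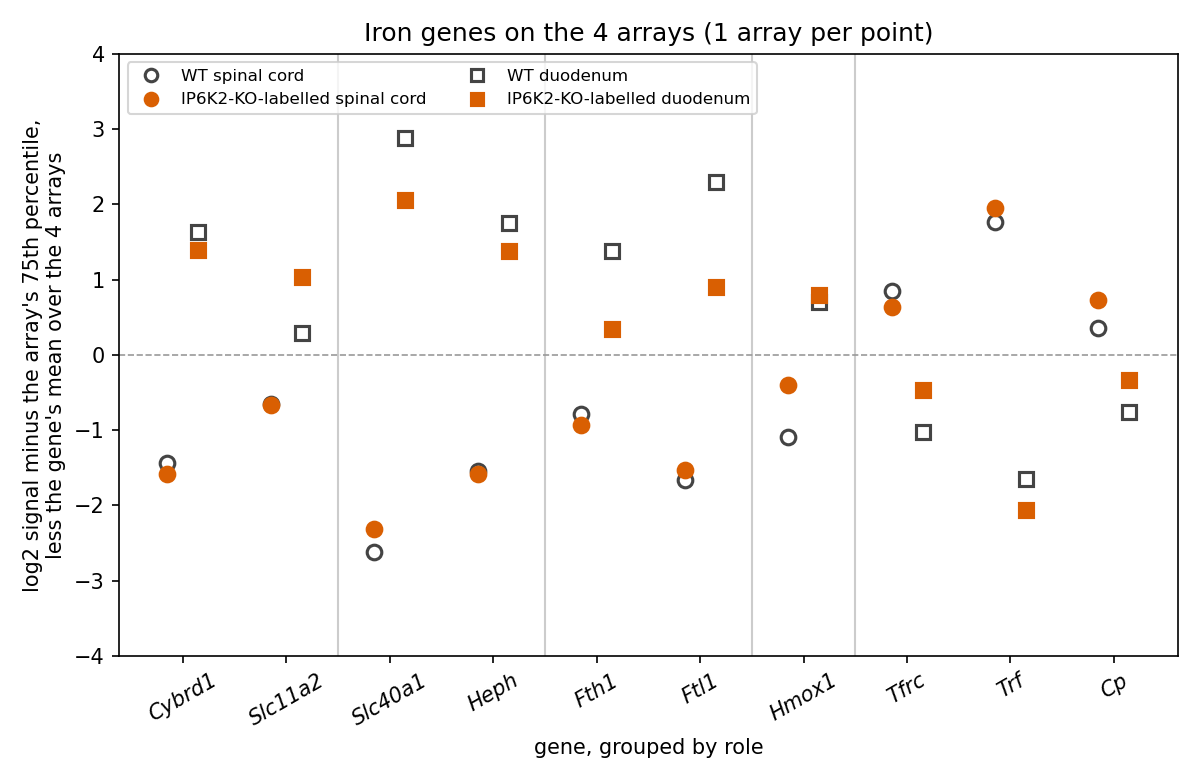
Level of each iron gene on the 4 arrays, as log2 processed signal minus the array's 75th percentile, less the gene's own mean over the arrays. Circles are spinal cord, squares duodenum, open symbols WT and filled symbols IP6K2-KO-labelled arrays, 1 array per symbol. With this scaling 7 genes were higher in the duodenum in both pairs, and *Tfrc*, *Trf* and *Cp* were lower in both; *Fth1* turned lower in both with quantiles of the 4 arrays, 4 genes were higher in both with quantiles within each tissue, and on the control probes 1 gene, *Slc40a1*, was.

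The second comparison asked how the IP6K2-KO-labelled duodenum differed from the WT duodenum. Before scaling, each of the 10 iron genes had a higher signal on the KO-labelled array, the brighter of the arrays. After the 75th percentile was subtracted, 0 of 10 were at least 2-fold higher, where 7.2% of 21435 genes were, and 2 of 10, *Fth1* and *Ftl1*, were at least 2-fold lower, where 11.9% were, which is about 1 gene in 10. The median of the 10 genes was −0.30, and that of the 16816 genes measured above background on each of the arrays was −0.11. The scalings moved this last median to 0.01 after quantile normalization of the 4 arrays and to 2.89 on the control probes.

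The ferritin result rested on the scaling. *Fth1* was lower on the KO-labelled array by 2.05-fold, a difference of −1.04 with a technical SD of 0.071, and *Ftl1* by 2.64-fold, a difference of −1.40 with the same technical SD. After quantile normalization of the 4 arrays the values were 0.20 for *Fth1* and −0.14 for *Ftl1*. Normexp correction without replacement left −0.41 for *Fth1* and −0.76 for *Ftl1*. Bright genes as a class shifted in the same direction. In the 500 brightest genes of the duodenum arrays, among which *Fth1* ranked 60 and *Ftl1* 89, the median difference was −0.93 with the 75th percentile and 0.03 with quantiles. Quantile normalization gives the arrays the same distribution, so that a median near 0 for the brightest genes is set by the method. Relative to the median gene *Ftl1* lay lower on the KO-labelled array under the 5 ways, between −1.28 and −0.15, whereas *Fth1* lay higher with both quantile normalizations and lower in the other 3.

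Ferroportin was also lower on the KO-labelled duodenum array. The difference of *Slc40a1* was −0.83, or 1.78-fold, with a technical SD of 0.070. It narrowed to −0.46 with quantiles of the 4 arrays and to −0.25 with normexp correction, and it was above 0, at 2.18, only where the control probes raised the median gene to 2.89. The value was below that of the median gene under the 5 ways, from −0.71 to −0.07. *Heph* differed by −0.37 with the 75th percentile, by −0.08 with quantiles and by 0.23 with normexp correction, so that its direction was not settled.

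Markers of other cells differed between the duodenum arrays as well. Of 8 smooth muscle markers 2 were at least 2-fold lower on the KO-labelled array, with a summed level of 74.3 against 131 and *Tagln* the brightest there at 6232, and of 6 endothelial markers 2 were. The log2 difference of the summed endothelial levels, −1.60, was largely that of *Kdr*, the brightest, at −2.42, as the list's median was −0.05 and 3 of its genes were above 0. All 6 red cell markers measured were at least 2-fold lower, with a summed level of 88.8 against 1533. Of 12 enterocyte markers 2 were lower and 1 higher, with a median near 0 and a summed level of 1631 against 3058, and *Fabp2* the brightest. With quantiles of the 4 arrays none of them was at least 2-fold lower, and the median was 0.44, or 0.61 with normexp correction. Of 6 Schwann cell markers 2 were higher, with a median of 1.11 over the 3 well above background on both arrays. The part of these cells in the *Slc40a1* and ferritin values was not tested.

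For brush border uptake the probes of *Slc11a2* opposed each other in the duodenum. The brighter probe was higher on the KO-labelled array by 0.75, or 1.68-fold, with a technical SD of 0.099, and the dimmer one was lower by 3.65-fold, a difference of −1.87 with a technical SD of 0.13. Both probes carry the same accession, and the files do not hold their sequences. The mean of the probes gave −0.56, while the 7 scalings left the brighter probe's value above 0. No direction can therefore be given for the transporter. *Cybrd1* differed by −0.23 and, by its dimmer probe, −0.12, close to the median gene of −0.11.

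Similar disagreement between probes marked *Hmox1* and *Tfrc* in the duodenum. The brighter *Hmox1* probe differed by 0.09 with a technical SD of 0.087, and the dimmer by −1.30 with a technical SD of 0.19. *Tfrc* was higher on the KO-labelled array by 0.56 with its most spotted probe, whose technical SD was 0.036, and differed by −1.10 with the probe next in brightness. *Trf* differed by −0.41 and 0.15 by its 2 probes. The *Cp* difference was 0.43 with a technical SD of 0.15 and turned to −0.67 under normexp correction. Of the 6 genes with more than 1 probe, *Cybrd1* was thus the one whose probes well above background on both duodenum arrays had the same sign, leaving aside *Heph*, for which a single probe passed that call.

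The third comparison set the arrays labelled IP6K2-KO and WT spinal cord side by side. None of the 10 iron genes was at least 2-fold apart with the main scaling, where 2.28% of 25217 genes were at least 2-fold higher and 0.864% were at least 2-fold lower on the KO-labelled array. The median of the 10 was 0.06, and that of the 24166 genes that passed the background call on each array was −0.04. Scaling on the control probes took the latter to −0.21, and normexp correction without replacement of the flagged local backgrounds took it to −0.45.

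*Hmox1* had the highest difference of the 10 in this comparison with the 75th percentile, as with quantiles. It was higher on the KO-labelled array by 0.68, or 1.60-fold, with a technical SD of 0.065, and its dimmer probe, at 37.0 on the WT and 59.4 on the KO-labelled array, was higher by 0.58. The difference was above 0 under the 7 scalings, from 0.14 to 0.68, and above the median gene by 0.59 to 0.72. Red cell markers were also higher on the KO-labelled array, whereas macrophage and microglia markers were nearly level, with a median of 0.14. Of 7 red cell markers measured, 5 were at least 2-fold higher on the KO-labelled array, and their summed level was 357 there and 231 on the WT array, with *Hba-a2* the brightest at 186448 and 135078. Of 11 macrophage and microglia markers 1 was at least 2-fold higher, and their summed level was 19.9 on the KO-labelled and 18.8 on the WT array, with *Csf1r* the brightest at 7992 and 7293.

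Skeletal muscle and Schwann cell markers also differed between these spinal cord arrays. Of 8 muscle markers 7 were at least 2-fold higher on the KO-labelled array, with a summed level of 74.0 against 26.9 and *Pvalb*, which neurons of the cord also express, the brightest at 27588 and 21848. *Pvalb* differed by 0.23, and the median over 7 of the markers was 4.02. Of 7 Schwann cell markers 5 were at least 2-fold higher, with a summed level of 54.5 against 42.8 and *Mal*, which oligodendrocytes also express, the brightest at 39480 and 36933. Of 9 choroid plexus and meninges markers 3 were at least 2-fold higher, with a summed level of 9.58 against 3.20 and *Dcn* the brightest at 8049 and 2109, and of 7 smooth muscle markers 2 were, with 6.40 against 3.90 and *Smtn* the brightest on the KO-labelled array at 2850. The 11 oligodendrocyte and 10 neuronal markers held 0 genes at least 2-fold apart. The part of these cells in the *Hmox1* value, or in that of any other iron gene of the spinal cord, was not tested.

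Smaller spinal cord differences were seen in the genes of export and carriage. *Cp* was higher on the KO-labelled array by 0.38 with a technical SD of 0.067, and *Slc40a1* by 0.31 with a technical SD of 0.066. Both turned to small negative values, −0.10 and −0.08, under normexp correction without replacement, when the median gene was at −0.45. *Trf* was higher by 0.20, and by 0.28 with its second probe, and stayed above 0 under the 7 scalings. These 3 genes lay above the median gene in the 5 ways, as did *Ftl1*, whose difference was 0.13 and fell below 0, at −0.04, on the control probes.

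For the remaining iron genes of the spinal cord the differences with the 75th percentile were small. The *Tfrc* difference was −0.22 with the probe spotted 10 times, whose technical SD was 0.019, and −0.03 and −0.29 with the others, so that all 3 were below 0. *Fth1* differed by −0.14, and by 0.30 under normexp correction without replacement. By their brightest probes *Slc11a2*, at −0.01, and *Heph*, at −0.04, lay within their technical SDs of 0.067 and 0.063. The dimmer *Heph* probes differed by −0.47 and −0.167, with technical SDs of 0.27 and 0.165. Under normexp correction without replacement *Slc11a2* was at −0.49, when the median gene was at −0.45. *Cybrd1* differed by −0.15 with a technical SD of 0.10, but by −1.49 under normexp correction without replacement, and its dim second probe by −0.64 with a technical SD of 0.27.

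**Figure D2:**
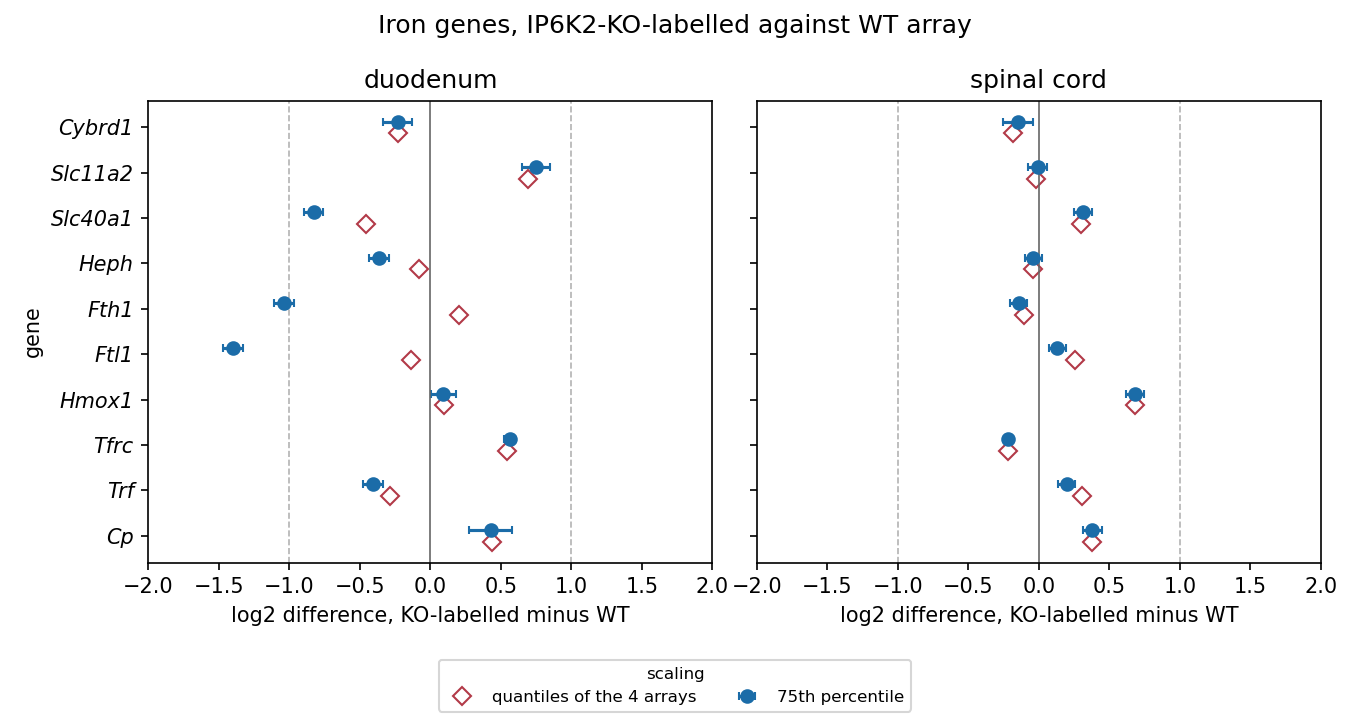
Log2 difference, IP6K2-KO-labelled minus WT array, of each iron gene in the duodenum (left) and the spinal cord (right). Filled circles use the 75th percentile of each array, with bars of 1 technical SD of spots, and open diamonds use quantile normalization of the 4 arrays; dashed lines mark 2-fold. In the duodenum *Fth1* moved from −1.04 to 0.20 and *Ftl1* from −1.40 to −0.14 between the scalings, while *Hmox1* in the spinal cord was at 0.68 with both.

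Other genes of iron and haem handling were examined in 9 lists with 95 genes. In the duodenum 87 were measured, of which 6 (6.9%) were at least 2-fold higher on the KO-labelled array and 4 (4.6%) at least 2-fold lower, with a median of 0.02 over the 82 well above background on both; of all genes 7.2% and 11.9% were. In the spinal cord 91 were measured, of which 4 (4.4%) were higher and 0 lower, against 2.28% and 0.864% of all genes. Between the tissues, 36 of 89 (40.4%) were at least 2-fold higher in the duodenum and 17 (19.1%) lower in the WT pair, against 30.2% and 23.1% of all genes, and 35 (38%) and 10 (10.9%) of 92 in the KO-labelled pair, against 30.3% and 25.4%.

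Iron sensing and ferritin turnover, the machinery that sets translation and breakdown of ferritin and the transferrin receptor, held 0 of 6 measured genes at least 2-fold apart in the duodenum, with a median of −0.16, and 0 of 6 in the spinal cord. The regulators and targets of the oxidative stress factor NRF2, a factor that also drives *Hmox1*, held 0 of 10 in the duodenum, with a median of 0.01. In the spinal cord 1 of 11 was higher, *Slc7a11*, with dim signals of 7.49 and 17.1 and a difference of 1.09, which was 0.83 with quantiles and 0.14 with normexp correction and replacement. Iron-sulfur cluster genes held 0 of 12 in each tissue, with a median of 0.41 in the duodenum.

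The hepcidin axis controls ferroportin at the protein level. *Hamp*, the hepcidin gene, was not well above background on any array. *Hamp2*, its close copy, gave 163 on the WT and 1904 on the KO-labelled duodenum array, higher by 1.30, or 2.46-fold, and by 1.27 with quantiles. Whether *Hamp2* acts on ferroportin, and the part of pancreatic acinar tissue in its value, were not tested. *Id1*, a target of the bone morphogenetic proteins that drive hepcidin, gave 1915 and 3816 and was lower by 2.38-fold, a difference of −1.25. That difference narrowed to −0.82 with quantiles and to −0.64 with normexp correction. The list's median over 8 genes was −0.16 in the duodenum. Of 10 genes measured in the spinal cord 1 was at least 2-fold higher. That gene, *Hjv*, is named after its value was seen, as it was well above background on the KO-labelled array alone and its difference of 1.30 is a lower bound; with quantiles of the 4 arrays 0 genes of the list were at least 2-fold higher.

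Of 9 haem synthesis genes 1 was at least 2-fold higher and 1 lower in the duodenum, with a median of −0.29, and 1 was higher in the spinal cord, with a median of 0.15. *Alas2*, the first enzyme of the pathway in red cell precursors, gave 1363 and 3390 on the WT and KO-labelled spinal cord arrays and 251 and 87.1 on the WT and KO-labelled duodenum arrays. It was higher on the KO-labelled array by 1.21 in the spinal cord and lower by 13.7-fold, a difference of −3.77, in the gut, the directions of the red cell markers. The red cell marker *Epb42* was not well above background on either duodenum array. *Uros*, a later enzyme, gave 21.6 and 405 in the duodenum and was higher by 1.98, or by 0.93 under normexp correction. The part of red cells in these values was not tested.

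Haem transport and breakdown beyond *Hmox1* held 0 of 10 measured genes at least 2-fold apart in the duodenum and 1 of 12 in the spinal cord. The latter was haptoglobin, *Hp*, which binds free haemoglobin in plasma, at 1434 and 3173, higher on the KO-labelled array by 1.04. Other iron transporters and reductases held 2 of 10 in the duodenum, *Steap1* and *Steap2*, both named after their values were seen, with lower bounds of 1.54 and 1.08 because neither was well above background on the WT array. They held 0 of 11 in the spinal cord.

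Targets and regulators of the hypoxia-inducible factors, of which HIF-2α drives *Slc11a2*, *Cybrd1* and *Slc40a1* in the duodenum, held 2 of 13 at least 2-fold higher on the KO-labelled duodenum array and 0 of 13 in the spinal cord. *Pdk1* gave 16.9 and 214, a difference of 1.42 that shrank to 0.21 under normexp correction. *Vegfa*, the other, is named after its value was seen, and its 2 probes opposed each other, at 1.98 and −2.27. The list's median in the duodenum was −0.01. Copper handling, which supplies *Heph* and *Cp* with their metal, held 2 of 7 lower in the duodenum, *Mt1* by 3.41-fold, −1.77, and *Mt2* by 2.25-fold, −1.17. Like the ferritins these are bright genes, and with quantiles their differences were −0.26 and 0.04, but −1.11 and −0.58 with normexp correction.

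The gene with the nearest pattern over the 4 arrays was sought for each iron gene among 12027 named genes well above background on all of them, by the root mean square distance of the normalized log2 values, each less its own mean. For *Slc11a2* it was *Gnpda1* at 0.021, for *Cybrd1* *Obp1a* at 0.031, for *Heph* *Slc19a1* at 0.031 and for *Slc40a1* *Tcn2* at 0.079. The ferritin genes were nearest to *Prodh* (*Fth1*, 0.025) and *Nup214* (*Ftl1*, 0.021), and *Hmox1* to *AI467606* at 0.043. *Tfrc* was nearest to *Borcs7* at 0.017, *Trf* to *Aplp1* at 0.082 and *Cp* to *Matn2* at 0.057. A pattern here has only 4 values, and closeness over 4 arrays was given no test.

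RefSeq promoters (GRCm38.p6), 250 bases before to 50 after a gene's start, were at hand for 5 of the 10 genes, *Cybrd1*, *Cp*, *Fth1*, *Ftl1* and *Tfrc*, as 8 entries. They were searched for ACGTG, the core of the hypoxia response element, on both strands, because both *Tfrc* and several genes of duodenal uptake are known targets of these factors. Both entries of *Tfrc* held it, as did 19.6% of all 32851 promoters. It is a single stretch on the forward strand at chr16:32608884-32608908, shown with 10 bases on each side and the motif in capitals.
Tfrc: cggtaggtgtACGTGcggaaggaag
The letters TGACNNNGC of the antioxidant response element, sought on both strands and found in 12.4% of promoters, and those of the iron-responsive element loop, CAGTG with a C at the sixth base before it, sought on the sense strand of the 50 bases after the start and found in 1.55%, were in none of the 8 entries. The rest of each transcript, beyond these 50 bases, was not searched, so that no gene is shown to lack an iron-responsive element. A match is a description of letters and not of a working site.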

How the data were processed

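The authors deposited 1-colour Agilent scanner output (Feature Extraction 11.5.1.1, per the labels), whose processed signal is a background-subtracted intensity, and a table of log2 values. The deposited log2 table matched quantile normalization of the 4 arrays, within 0.021 for the 18 probes. Controls and outlier-flagged spots were omitted, log2 signals were averaged over a probe's spots, and each array's 75th percentile was subtracted. Probes were named through RefSeq accessions (GRCm38.p6 annotation, 25868 of 26391 NM probes matched). A gene below background on 1 of 2 arrays has only a bound, computed against the lowest value well above background there, or its own if higher. Genes measured on at least 1 of 2 arrays were counted at 2-fold. The technical SD is the median of the 50 replicated probes nearest in brightness, out of 304. No probe was saturated, and the arrays share a slide. Python 3.11.15, numpy 2.4.6, pandas 2.3.3, R 4.3.3 and limma 3.58.1 were used, and functions were tested on simulated data. Each array enters 2 comparisons. Alternatives were normexp background correction (offset 50) with and without replacement of local backgrounds that the scanner flagged, quantile normalization of the 4 arrays or within each tissue, median centring, scaling on 8 spiked-in control probes, the deposited table and the mean of a gene's probes. The iron genes and the lists were chosen with earlier results of these data known. Ways that nearly repeat another, and the mean of probes, were taken out of the ranges after their values were seen. Some results of single genes are left out, and lists were counted without them. Besides the iron genes and *Ip6k2*, genes named are the 2 furthest apart in each direction of a list at 2-fold in a genotype comparison, whose probes agree in direction, the brightest marker of a list, markers missing where their tissue should hold them, the nearest pattern, and genes said to be named after their values were seen.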

Additional observations from a re-analysis of the deposited data

Results flagged for a closer look

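Genotype differences of *Slc40a1*, *Ftl1*, *Tfrc* and *Trf* ran in opposite directions in the duodenum and the spinal cord. Each exceeded 2 technical SDs of spots. The share of all genes that did so is not given, so nothing particular to the iron genes is read from this. The difference between the tissues was not tested, since each rests on 1 array per genotype and tissue. For *Slc40a1* the difference was −0.83 in the duodenum against 0.31 in the spinal cord, −1.14 apart. It was −0.25 and −0.08, the same sign, with normexp correction without replacement, and 2.18 and 0.15 on the control probes. For *Ftl1* it was −1.40 and 0.13, or −1.53 apart, but −0.14 and 0.25 after quantile normalization of the 4 arrays. *Tfrc* was at 0.56 and −0.22, 0.78 apart, although another of its probes was at −1.10 in the duodenum and normexp correction left 0.06 there. *Trf* was at −0.41 and 0.20, −0.60 apart, with its second probe at 0.15 in the duodenum. Its duodenum value was −0.02 with normexp correction, and on the control probes the tissues had the same sign, 2.60 and 0.03.

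Among the other genes named from the lists, *Alas2*, *Id1* and *Pdk1* also moved in opposite directions in the tissues. The differences exceeded 2 technical SDs in each tissue and were again untested. These genes had been named for being at least 2-fold apart in a genotype comparison, and the share of all genes is not given. *Alas2* was at −3.77 in the duodenum against 1.21 in the spinal cord, −4.99 apart, as were red cell markers, with medians of −2.91 and 1.17. *Id1* was at −1.25 and 0.16, −1.42 apart, with −0.64 in the duodenum under normexp correction. *Pdk1* was at 1.42 and −0.18, 1.60 apart, but at 0.21 in the duodenum under normexp correction.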

How the results depend on the processing

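Of 320 values of single iron genes under other ways of processing, 104 stayed within 1 technical SD of spots, 193 moved further, and 23 of those at least 2-fold apart changed sign. The cause of these changes was not tested unless stated. No model was fitted over the 4 arrays.

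In the duodenum, *Fth1* changed sign to 0.20 with quantiles of the 4 arrays, 0.25 with quantiles within each tissue, 0.24 in the deposited table and 1.97 on the control probes, where *Ftl1* was at 1.61. The 2 ferritin genes at least 2-fold lower became 0 under both normexp corrections, both quantile normalizations, the control probes and the deposited table. On the control probes 10 iron genes were at least 2-fold higher, as were 20613 of all genes, with 18 lower, since that scaling shifts all genes alike. At 1.5-fold, 3647 genes were higher and 4835 lower; without a filter on dim probes, 2462 and 12540.

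In the spinal cord, 1318 genes were higher and 808 lower at 1.5-fold, and 1105 and 875 without a filter. The lower ones numbered 144 with quantiles of the 4 arrays, 352 on the control probes and 128 when well above background on both arrays was asked for. Normexp correction without replacement left 1 iron gene, *Cybrd1*, at least 2-fold lower.

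Between the tissues of the WT pair, the control probes gave −1.97 for *Cybrd1*, −1.73 for *Heph*, −2.86 for *Fth1*, −1.07 for *Ftl1* and −3.25 for *Hmox1*. Quantiles within each tissue gave −1.08 for *Fth1* and −0.89 for *Hmox1*, quantiles of the 4 arrays −1.02 and the deposited table −1.04 for *Fth1*, and normexp with replacement 0.34 for *Cp*. Iron genes at least 2-fold higher in the duodenum fell to 1 with quantiles within each tissue and 0 on the control probes, and those lower rose to 5 and 9. Over all genes, 2178 were higher and 16733 lower with quantiles within each tissue, and 864 and 23281 on the control probes; 16461 were higher without a filter, and 3531 lower with both arrays above background.

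Between the tissues of the KO-labelled pair, quantiles within each tissue gave −0.95 for *Slc11a2*, −0.77 for *Fth1* and −1.45 for *Hmox1*, and the control probes −0.16, −0.58 and −0.67 for the same genes. *Fth1* was at −0.72 with quantiles of the 4 arrays and −0.70 in the deposited table. Iron genes higher in the duodenum fell to 1 and 3 with quantiles within each tissue and the control probes, and those lower to 1 under both normexp corrections and median centring. Over all genes, 1706 were higher and 19974 lower with quantiles within each tissue, 2460 and 16672 on the control probes, and 12913 higher without a filter.

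The number of arrays, 1 for each genotype and tissue, limits every value: mice, dissection and hybridization cannot be told apart from genotype. The WT duodenum array was dim, so that more probes there have bounds or no value. Probe sequences are not in the files, which leaves probes of a gene that disagree unresolved and does not show whether ferritin probes also bind pseudogene copies.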
